A study of Mus musculus with 20 samples.

Results

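Immediate early genes are the first genes that a cell transcribes after a stimulus, and 10 of them were followed here across 20 mouse hearts: Fos, Fosb, Jun, Junb, Egr1, Atf3, Nr4a1, Ier2, Ier3 and Dusp1. Members were taken by name, as every probe whose gene name on the array is 1 of these symbols, which gave 12 of 41174 probes and 10 of 27670 gene names. Each array held the RNA of 1 heart, labelled with Cy5, against a Cy3-labelled pool of whole C57BL/6 pups at postnatal day 1. Hearts came from MuRF1 +/+ mice and from MuRF1 -/- mice, which lack the muscle ubiquitin ligase encoded by Trim63, and the study asked how MuRF1 bears on heart growth under fenofibrate, a fibrate drug and PPAR alpha agonist. In each genotype 3 hearts were from mice on chow (8 weeks), 4 from mice given 3 weeks of 0.05% (w/w) fenofibrate in chow, and 3 from mice given 8 weeks of it. The groups are described as matched for strain, and no sex of the animals was stated in the sources used here. The chow hearts are labelled as 8 weeks, so the hearts at 3 weeks lack a chow group of their own duration, and both comparisons with chow in a genotype use the same 3 chow hearts. Weeks are read here as duration of feeding, as the labels of the hearts have it. The text on the series design names 3 to 8 weeks both as the age of the mice and as the time points, so between 3 and 8 weeks feeding time and age cannot be told apart. That text also counts up to 3 replicates per condition, where the labels hold up to 4.

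These genes need no new protein to be switched on: kinases activate factors that already sit at their promoters, such as the serum response factor at CArG boxes and CREB at cAMP response elements, and the transcripts usually decay within hours. Fos, Fosb, Jun and Junb encode subunits of the AP-1 transcription factor, and Atf3 encodes a stress-induced partner of the same bZIP class. Egr1 encodes a zinc finger transcription factor, Nr4a1 an orphan nuclear receptor, Ier2 a nuclear protein and Ier3 a stress-inducible protein of cell survival, while Dusp1 encodes a phosphatase that switches off MAP kinases. In the heart they are known for rapid induction by stretch, adrenergic stimulation and ischaemia, and also by the handling of the tissue at harvest.

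RefSeq promoter entries (build GRCm38.p6) were at hand for 8 of the 10 members, all but Egr1 and Ier2. The 250 bases before the transcription start are printed for Nr4a1 and Atf3, which were higher after 8 weeks in some comparisons below, and for Ier3, which was lower. Sequences run 5′ to 3′ on the strand of the gene, and capitals mark TGACG, the core of the cAMP response element, read on either strand (CGTCA on the other one).
Nr4a1, chr15:101266596-101266845, plus strand: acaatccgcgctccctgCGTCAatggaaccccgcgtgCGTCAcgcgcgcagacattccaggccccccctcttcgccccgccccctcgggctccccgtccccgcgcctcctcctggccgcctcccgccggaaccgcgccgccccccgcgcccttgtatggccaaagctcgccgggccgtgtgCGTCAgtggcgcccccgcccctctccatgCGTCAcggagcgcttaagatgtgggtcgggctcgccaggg
Atf3, chr1:191183334-191183583, minus strand: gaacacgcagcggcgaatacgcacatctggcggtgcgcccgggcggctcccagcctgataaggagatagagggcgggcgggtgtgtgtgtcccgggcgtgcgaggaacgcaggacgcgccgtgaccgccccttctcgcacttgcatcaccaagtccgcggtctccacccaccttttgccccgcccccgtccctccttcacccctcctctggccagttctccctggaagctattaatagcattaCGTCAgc
Ier3, chr17:35821463-35821712, plus strand: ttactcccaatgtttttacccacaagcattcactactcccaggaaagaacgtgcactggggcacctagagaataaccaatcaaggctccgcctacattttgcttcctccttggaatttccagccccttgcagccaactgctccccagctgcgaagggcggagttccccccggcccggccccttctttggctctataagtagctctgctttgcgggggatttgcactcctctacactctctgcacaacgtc

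The Nr4a1 window held 4 such cores, the most distal starting 233 bases and the most proximal 40 bases before the start. The Atf3 window held 1, from 7 to 3 bases before the start, and the Ier3 window held none. Among the other members Fos had 2, Fosb 1, Junb 1, Jun none and Dusp1 3, of which 2 lie within its full palindrome TGACGTCA, 143 to 136 bases before the start. Of 27025 promoter windows of the same length, 17.9% held TGACG and 1.62% held TGACGTCA on either strand. The AP-1 motif TGANTCA (6.87% of windows) and the CArG box (1.40%) were found in none of the 8 windows, and TATAAA (13.0%) only in that of Fos. These matches describe letters, and no binding was measured.

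Several properties of the arrays bear on every value below. The 6 cardiomyocyte markers averaged 2.84 to 3.60 on the log2 heart-over-reference scale in every heart, so the tissue matched its label. Trim63 was 0.79 to 2.85 in MuRF1 +/+ hearts and -1.19 to -0.49 in MuRF1 -/- hearts, the 0.79 being replicate 2 of the 8-week MuRF1 +/+ group. That array and replicate 4 of the 3-week MuRF1 -/- group stand apart from the rest, with 34.0% and 34.3% of probes above background in the heart channel against 36.9% to 51.9% elsewhere. Transcripts of the sex chromosomes differed between the diet groups. Whether the sex of the animals differed between these groups is not labelled and was not tested. Ddx3y, which is Y-linked, was 1.29 to 1.74 in the 6 chow hearts of both genotypes. It was -0.89 to -0.41 in the 7 fenofibrate hearts of MuRF1 +/+, and -1.22 to -0.17 in the 4 MuRF1 -/- hearts at 3 weeks. At 8 weeks the MuRF1 -/- hearts were split, with 1.47 and 1.30 in replicates 1 and 3 and -0.68 in replicate 2. Xist, which is X-linked, was -4.24 to -3.49 in the chow hearts and -0.50 to 0.20 in the 3-week hearts of both genotypes. At 8 weeks Xist was -2.70, -0.90 and -2.04 in MuRF1 +/+ and -3.51, -2.72 and -4.05 in MuRF1 -/-. In MuRF1 +/+, and at 3 weeks against chow in MuRF1 -/-, diet and whatever sets these levels therefore cannot be told apart. The same holds from 3 to 8 weeks in MuRF1 -/-, where the Xist levels did not overlap and Ddx3y was high only in 8-week replicates 1 and 3. The calls of members below are also given with a covariate for the Y-linked level (the Y-linked covariate). Those of the other gene lists are given as counts with it. The effect of the covariate is fitted within groups, where the SD of Ddx3y was 1.20 at 8 weeks in MuRF1 -/- and 0.12 to 0.45 elsewhere. Values with the covariate thus rest largely on that 1 split group, carried over to the others, and cannot settle the part of diet.

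Detection separated the members. Jun, Egr1, Atf3, Nr4a1, Ier2, Ier3 and Dusp1 had a probe that was well above the local background of the heart channel on all 20 arrays, and the brighter Junb probe on 19, its spot on the remaining array (MuRF1 -/- at 8 weeks, replicate 3) being an outlier and treated as missing. Fos was above background on 4 arrays, all of them MuRF1 +/+, and Fosb on 2. Fosb was therefore not tested, since a gene needed 3 such arrays, and 9 of the 10 members entered the fit among 14567 genes. The Fos log2 ratio lay between -1.30 and -0.38 and that of Fosb between -0.13 and 0.17, close to the floor of the heart channel. Fos and Jun were printed 10 times on each array, and the median SD between their spots on 1 array was 0.08 and 0.05. A second probe each existed for Junb (above background on 20 arrays) and Ier2 (on 3).

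**Figure D1:**
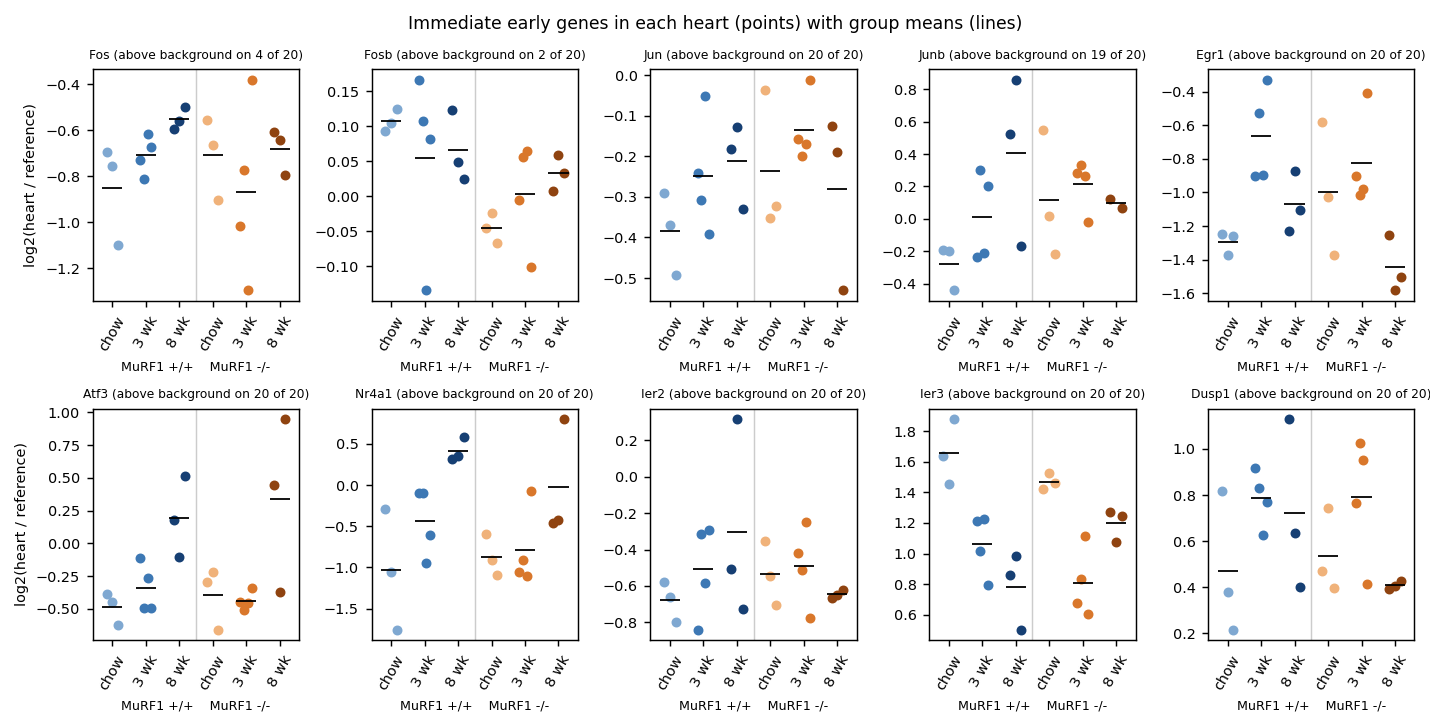
Log2 ratio of heart over reference (vertical axis) of the 10 immediate early genes in each of the 6 groups; each point is 1 heart, each line a group mean, and the vertical scale differs between panels. Ier3 is lower in all 7 MuRF1 +/+ fenofibrate hearts than in the 3 chow hearts, and Nr4a1 is highest in the 8-week MuRF1 +/+ hearts and in 1 MuRF1 -/- heart at 8 weeks.

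Among the AP-1 subunits, no difference between groups passed an adjusted p of 0.05 in limma. Jun varied little: its log2 ratio ran from -0.49 to -0.29 in MuRF1 +/+ chow hearts, from -0.39 to -0.05 at 3 weeks and from -0.33 to -0.13 at 8 weeks. The range in MuRF1 -/- hearts over all diets was -0.53 to -0.01. The 95% interval of the 8-week difference in MuRF1 +/+ ran from -0.08 to 0.42 for Jun, and in MuRF1 -/- from -0.29 to 0.20. Fos was -0.69, -0.76 and -1.10 on chow and -0.59, -0.56 and -0.50 at 8 weeks in MuRF1 +/+, of which 1 heart in each group was above background. Those groups did not overlap, but the difference of 0.30 ± 0.16 (SE) had an adjusted p of 0.200.

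Junb was the AP-1 subunit with the widest spread. Its log2 ratio in MuRF1 +/+ was -0.19, -0.20 and -0.44 on chow, -0.24, 0.30, -0.21 and 0.20 at 3 weeks, and 0.52, 0.86 and -0.17 at 8 weeks. All 3 hearts at 8 weeks lay above the chow hearts, the third by little. The difference was 0.68 ± 0.23 (1.61-fold) with an adjusted p of 0.0518. Without replicate 3 of the 8-week group it was 0.97 (adjusted p = 0.0073), and without replicate 2, 1 of the arrays that stand apart, 0.46 (adjusted p = 0.261). The second Junb probe gave 0.68, 0.90 and -0.39 in the same 3 hearts. Junb in MuRF1 -/- was 0.55, 0.02 and -0.21 on chow and 0.12 and 0.07 in the 2 measured hearts at 8 weeks, with a difference of -0.02 ± 0.25.

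Atf3, the stress-induced partner of AP-1, rose from 3 to 8 weeks in MuRF1 -/-. In MuRF1 +/+ the same comparison gave 0.54 ± 0.21 (adjusted p = 0.0891), which did not pass, with groups that did not overlap. The mean of Atf3 at 8 weeks was above that on chow in both genotypes, by differences that did not pass the test. Its log2 ratio in MuRF1 -/- was -0.29, -0.22 and -0.66 on chow, -0.45, -0.51, -0.46 and -0.34 at 3 weeks, and 0.45, -0.38 and 0.95 at 8 weeks. Replicates 1 and 3 of the 8-week group lay above all other MuRF1 -/- hearts, and replicate 2, the heart with low Ddx3y, lay among them. The rise from 3 to 8 weeks was 0.78 ± 0.21 (1.72-fold, adjusted p = 0.00925), although the groups overlapped. Without replicate 3 of the 8-week group it was 0.47 (adjusted p = 0.0904), from Agilent's own log ratio 1.44 (adjusted p = 0.00885), and with the Y-linked covariate 0.17 (adjusted p = 0.682).

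Against chow, the Atf3 difference at 8 weeks in MuRF1 -/- was 0.73 ± 0.23 with an adjusted p of 0.118. Leaving out 1 heart of these groups at a time gave 0.43 (adjusted p = 0.551, without 8-week replicate 3) to 1.09 (adjusted p = 0.00655, without 8-week replicate 2, the lowest of its group), and with the Y-linked covariate in all 20 hearts the value was 0.98 (adjusted p = 0.0153). In MuRF1 +/+ the log2 ratio was -0.39, -0.45 and -0.62 on chow, -0.11, -0.50, -0.27 and -0.49 at 3 weeks, and 0.18, -0.11 and 0.51 at 8 weeks. The 8-week hearts lay above all chow hearts, by 0.68 ± 0.23 (1.60-fold, adjusted p = 0.0526). Without the 2 arrays that stand apart this was 0.83 (adjusted p = 0.0372). From Agilent's log ratio it was 1.37 (adjusted p = 0.0468). With the Y-linked covariate it was 1.51 (adjusted p = 0.0321), and without chow replicate 3 it was 0.61 (adjusted p = 0.180). The difference of the 8-week responses between genotypes was 0.05 for Atf3, with a 95% interval from -0.62 to 0.73.

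Nr4a1, the orphan receptor with the 4 cores printed above, rose at 8 weeks in MuRF1 +/+, with the largest log2 difference of the 9 tested members in that comparison. Its log2 ratio in MuRF1 +/+ was -0.29, -1.06 and -1.76 on chow, -0.10, -0.10, -0.94 and -0.61 at 3 weeks, and 0.31, 0.36 and 0.58 at 8 weeks. The chow hearts were spread over more than a log2 unit, and all 3 of the 8-week hearts lay above all 7 others of their genotype. The rise over chow was 1.45 ± 0.36 (2.74-fold, adjusted p = 0.0135). Within the 2 slides that held both groups it was 1.37 and 2.12. It did not pass without chow replicate 3, the lowest heart (1.09, adjusted p = 0.0992), with only the 2 groups in the fit (1.45, adjusted p = 0.0970) or with the Y-linked covariate (2.08, adjusted p = 0.117).

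Without MuRF1, Nr4a1 was -0.60, -0.92 and -1.10 on chow, -1.06, -0.91, -1.11 and -0.07 at 3 weeks, and -0.46, -0.42 and 0.80 at 8 weeks. All 3 of the 8-week hearts were above the chow hearts, 2 of them by little. The difference of 0.84 ± 0.36 had an adjusted p of 0.312. The 8-week responses of the genotypes differed by -0.61 ± 0.51 (adjusted p = 0.521), so a smaller response without MuRF1 was not shown.

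Egr1, the zinc finger factor, was higher at 3 weeks than on chow in MuRF1 +/+ and lower at 8 than at 3 weeks in MuRF1 -/-. In MuRF1 +/+ its log2 ratio was -1.25, -1.38 and -1.26 on chow, -0.90, -0.52, -0.90 and -0.33 at 3 weeks, and -1.23, -0.87 and -1.11 at 8 weeks. The 4 hearts at 3 weeks lay above the 3 chow hearts, and the 8-week hearts were in between, overlapping those at 3 weeks. From 3 to 8 weeks the difference was -0.41 ± 0.18 (adjusted p = 0.131). The rise at 3 weeks was 0.63 ± 0.18 (1.55-fold, adjusted p = 0.0165), and 0.34 and 0.85 within the 2 slides with both groups. From Agilent's log ratio it was 0.97. It missed the threshold without replicate 4 at 3 weeks (adjusted p = 0.0592), without chow replicate 2 (0.0578) or 3 (0.0506), and with the Y-linked covariate (0.98, adjusted p = 0.103).

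The MuRF1 -/- hearts had Egr1 log2 ratios of -0.58, -1.03 and -1.37 on chow, -0.90, -1.01, -0.98 and -0.41 at 3 weeks, and -1.25, -1.58 and -1.50 at 8 weeks. All 3 of the 8-week hearts lay below the 4 at 3 weeks. From 3 to 8 weeks Egr1 fell by 0.62 on the log2 scale (SE 0.18, 1.54-fold, adjusted p = 0.0140). From Agilent's log ratio this was -1.35 (adjusted p = 0.000982), and with the Y-linked covariate -0.86 (adjusted p = 0.0333). It missed the threshold without 8-week replicate 2 (-0.55, adjusted p = 0.0646) or replicate 3 (-0.59, adjusted p = 0.0529). Against chow the 8-week difference was -0.45 ± 0.19 (adjusted p = 0.312), and the chow hearts overlapped both other groups.

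Ier3 was the member with the most calls, and it was lower under fenofibrate. In MuRF1 +/+ its log2 ratio was 1.64, 1.46 and 1.88 on chow, 1.21, 1.02, 1.23 and 0.79 at 3 weeks, and 0.86, 0.98 and 0.50 at 8 weeks. Every chow heart lay above every fenofibrate heart. Against chow Ier3 fell by 0.59 at 3 weeks (SE 0.14, 1.51-fold, adjusted p = 0.00472) and by 0.88 at 8 weeks (SE 0.15, 1.83-fold, adjusted p = 0.00127), on the log2 scale. Within slides the differences were -0.44 and -0.43 at 3 weeks and -0.90 and -0.60 at 8 weeks. With the Y-linked covariate the estimates were -0.62 (adjusted p = 0.192) and -0.90 (adjusted p = 0.118), close in size and no longer past the threshold. The 3-week call was also lost with all spots in the background fit (adjusted p = 0.0501) and in the series matrix (adjusted p = 0.0685), and the 8-week call with only the 2 groups in the fit (adjusted p = 0.0677).

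The Ier3 log2 ratio in MuRF1 -/- was 1.42, 1.53 and 1.46 on chow, 0.68, 0.83, 1.11 and 0.60 at 3 weeks, and 1.27, 1.07 and 1.25 at 8 weeks. The hearts at 3 weeks were all below the chow hearts, and those at 8 weeks lay between, overlapping the 3-week group in 1 heart. Ier3 fell by 0.66 at 3 weeks (SE 0.14, 1.58-fold, adjusted p = 0.0020) and rose by 0.39 ± 0.14 from 3 to 8 weeks (1.31-fold, adjusted p = 0.0389). At 8 weeks the difference from chow was -0.27 ± 0.15 (adjusted p = 0.503). The 3-week fall was -0.68 (adjusted p = 0.147) with the Y-linked covariate. It was -0.30 both with all spots in the background fit (adjusted p = 0.321) and in the series matrix (adjusted p = 0.423), 2 settings in which the Ier3 value of chow replicate 2 drops to 0.44 and 0.48. The rise from 3 to 8 weeks was 0.41 (adjusted p = 0.196) with the Y-linked covariate. It was lost in 12 of 22 alternatives, among them leaving out 3-week replicate 1 (adjusted p = 0.0977), 2 (0.0553) or 4 (0.0913), or 8-week replicate 1 (0.121) or 3 (0.116).

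At 8 weeks the Ier3 levels of the genotypes did not overlap, at 0.50 to 0.98 in MuRF1 +/+ and 1.07 to 1.27 in MuRF1 -/-. The difference was 0.42 ± 0.15 with an adjusted p of 0.136. The 8-week responses differed between genotypes by 0.61 (95% interval 0.17 to 1.05, adjusted p = 0.223), and with array weights, which give the arrays that stand apart less influence, by 0.78 (adjusted p = 0.0105). Ddx3y also separated 2 of the 3 MuRF1 -/- hearts from the MuRF1 +/+ hearts at 8 weeks.

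Ier2 and Dusp1 passed the test in no comparison. The Ier2 log2 ratio was -0.80 to -0.58 on chow and -0.73 to 0.32 at 8 weeks in MuRF1 +/+, the 0.32 being replicate 2, an array that stands apart, and the difference was 0.37 ± 0.20 (adjusted p = 0.205). Over all MuRF1 -/- hearts Ier2 ran from -0.77 to -0.25. Dusp1, the MAP kinase phosphatase, ran from 0.22 to 0.82 in the MuRF1 +/+ chow hearts, from 0.63 to 0.92 after 3 weeks and from 0.40 to 1.13 after 8. Its MuRF1 -/- ranges were 0.40 to 0.74, 0.42 to 1.03 and 0.39 to 0.43. The 3 hearts of the last group lay closer together than those of any other group, and the fall from 3 to 8 weeks was 0.38 ± 0.17 in size (adjusted p = 0.0959). Without replicate 4 at 3 weeks, an array that stands apart, it was -0.51 (adjusted p = 0.0253).

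**Figure D2:**
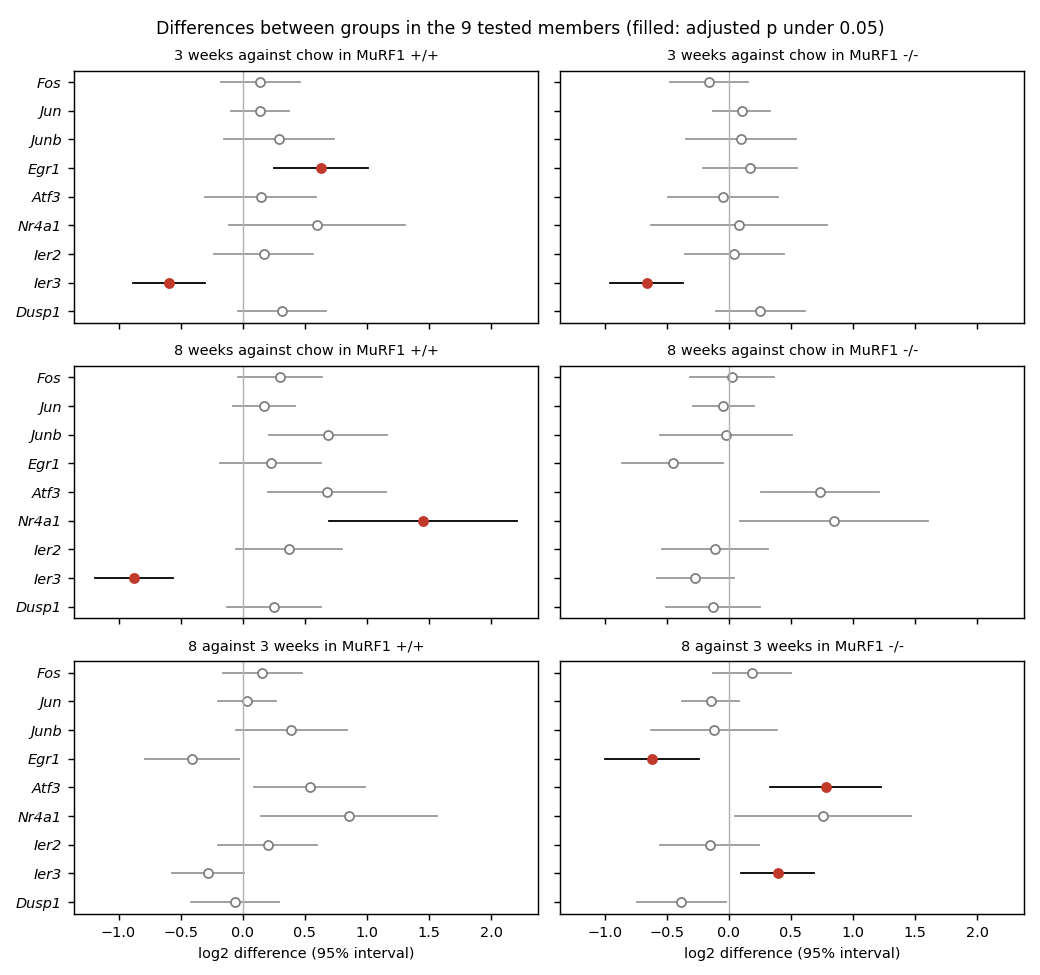
Log2 difference between 2 groups (horizontal axis, point) with its 95% interval (line) for the 9 tested members in 6 comparisons; filled points have an adjusted p under 0.05. Ier3 is called lower in 3 panels, and the only other calls are Egr1, Nr4a1 and Atf3 higher in 1 panel each, Egr1 lower in 1 and Ier3 higher in 1.

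The counts of called members are set beside the share of all tested genes called in the same comparison. At 3 weeks in MuRF1 +/+, 2 of 9 members passed in either direction, and 24.2% of all tested genes did. At 3 weeks in MuRF1 -/- it was 1 of 9 against 26.4%. At 8 weeks the counts were 2 of 9 in MuRF1 +/+ against 14%, and 0 of 9 in MuRF1 -/- against 1.83%. Between 8 and 3 weeks, 0 of 9 were called in MuRF1 +/+ (17.5% of all genes) and 3 of 9 in MuRF1 -/- (31.5%). Where limma called 0 of 9, an unadjusted p under 0.05 was reached by 3 members at 8 weeks in MuRF1 -/- (Egr1, Atf3 and Nr4a1) and by 3 from 3 to 8 weeks in MuRF1 +/+ (the same genes). Many other genes reached it too. Ranked by p among the 14567 tested genes, the last of these 3 stood at 1437 (Nr4a1) in the first comparison and 4060 (Egr1) in the second. The median log2 difference of the 9 members at 8 weeks was 0.30 in MuRF1 +/+ and -0.04 in MuRF1 -/-, beside 0.03 and -0.01 over all tested genes. Of the 9 members 8 were above 0 in MuRF1 +/+ and 3 in MuRF1 -/-, beside 54.8% and 47.6% of all tested genes.

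No difference of a member between the genotypes passed the test in limma. Comparing MuRF1 -/- with MuRF1 +/+, 0 of 9 members were called on chow, at 3 weeks, at 8 weeks or averaged over diets, where 0.0892%, 0.398%, 0.0892% and 0.192% of all genes were. An unadjusted p under 0.05 was reached by Ier3 at 8 weeks, which stood at rank 1220 by p among the 14567 tested genes. No member reached it in the other 3 of these comparisons. The differences averaged over diets ran from -0.21 ± 0.20 for Nr4a1 to 0.10 ± 0.13 for Junb. For Nr4a1 the 95% interval of that average, -0.63 to 0.21, still allows a sizeable fall, and for Jun it was -0.07 to 0.20. The difference of the 3-week responses was called for 0 of 9 members (0% of all genes), and that of the 8-week responses for 0 of 9 (0.00686%), with 0 and 2 members (Egr1 and Ier3) at an unadjusted p under 0.05. By p these 2 stood at ranks 1357 (Egr1) and 628 (Ier3) among all tested genes. The difference of the 8-week responses was -0.68 ± 0.27 for Egr1 (adjusted p = 0.252) and -0.70 ± 0.34 for Junb (adjusted p = 0.302).

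**Figure D3:**
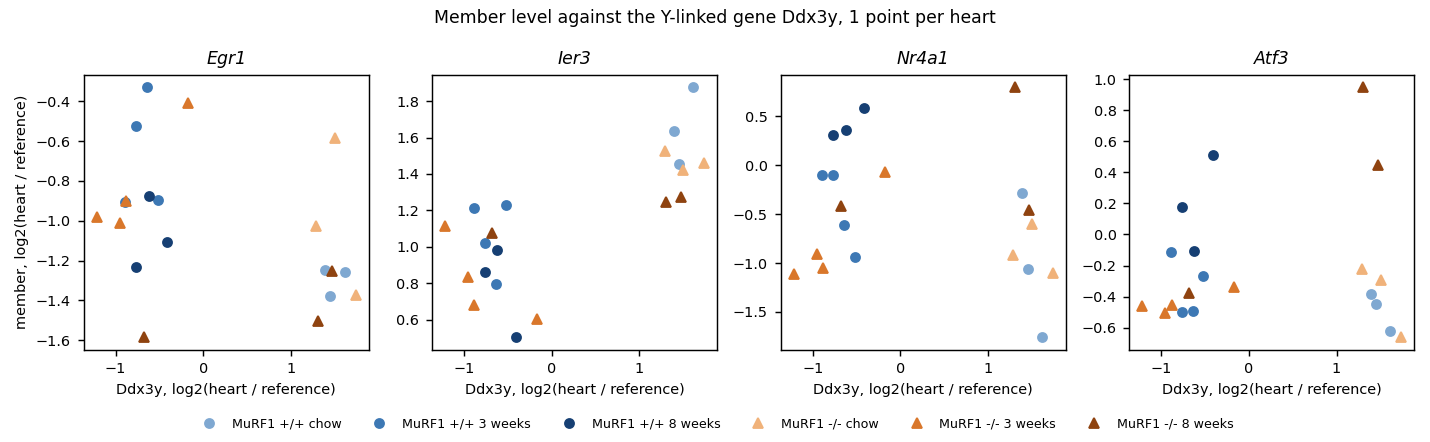
Log2 ratio of Egr1, Ier3, Nr4a1 and Atf3 (vertical axes) against that of the Y-linked gene Ddx3y (horizontal axis); each point is 1 heart, circles MuRF1 +/+ and triangles MuRF1 -/-. The hearts form 2 clusters of Ddx3y, at -1.22 to -0.17 and 1.29 to 1.74, with every MuRF1 +/+ chow heart in the high cluster and every MuRF1 +/+ fenofibrate heart in the low one.

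Members differed in how much hearts of 1 group varied. The within-group SD of Nr4a1 was 0.50, at the 99.3rd percentile of all tested genes, whose median was 0.14. Atf3 (0.31, percentile 93.0), Junb (0.30, 92.5), Ier2 (0.27, 88.6), Egr1 (0.26, 86.6) and Dusp1 (0.24, 83.5) followed, and Ier3 (0.19, 70.8) and Jun (0.14, 49.0) were nearer the median. Fos, at 0.22, was measured mostly below background. The wide spread of Nr4a1, Atf3 and Junb sets the width of the intervals above.

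The members did not vary together as a block. Over the 20 arrays, each taken as its deviation from the group mean, the 36 pairs of tested members had a median Pearson correlation of 0.10, from -0.53 (Fos with Ier3) to 0.84 (Junb with Ier2), and 23 were positive. Atf3 with Nr4a1 reached 0.54 and Fos with Egr1 0.50. Array quality is shared by all genes of an array, and these correlations are given as a description. Deviations of 14311 other tested genes were correlated with the mean of the 9 members over the 20 arrays, with a 99th percentile of 0.58. The 8 highest of these correlations, picked from all of them, were 0.75 to 0.80, in order Gabarapl1, Mtmr11, Rab31, Tmem181a, Atxn7l3, Hspa1a, AK034786 and Rbmxl1.

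A list of 45 other early response genes, of which 39 were tested, was followed for comparison. At 8 weeks in MuRF1 +/+, 13 of 39 were higher than on chow (5.26% of all tested genes) and 0 lower (8.74%), with a median difference of 0.36 beside 0.03 over all genes. The 5 with the smallest p were Cebpb, a bZIP factor of inflammation and metabolism (1.60 ± 0.24, adjusted p = 0.000532), Maff, a small Maf factor (1.31 ± 0.23, adjusted p = 0.00159), Klf10, a TGF-beta-inducible zinc finger factor (0.90 ± 0.16, adjusted p = 0.0020), Errfi1, a feedback inhibitor of the EGF receptor (0.96 ± 0.18, adjusted p = 0.00246), and Cebpd (1.39 ± 0.30, adjusted p = 0.00571). With the Y-linked covariate 1 of the 13 was still called, Cebpb (1.99 ± 0.39, adjusted p = 0.0326), where 0.192% of all genes were called higher. At 3 weeks in MuRF1 +/+ 6 of 39 were higher (12%) and 3 lower (12.3%), led by Btg1, an antiproliferative gene (0.77 ± 0.13, adjusted p = 0.000419), Errfi1 (0.80 ± 0.17, adjusted p = 0.00216) and Zfp36l1, an RNA-binding decay factor (0.58 ± 0.14, adjusted p = 0.00712). The 3 lower genes, named after their values were seen, were Cebpb (-0.66), Cebpd (-0.89) and Csrnp1 (-0.41). None of these 9 calls was made with the Y-linked covariate.

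Of the same list in MuRF1 -/-, only Cebpb (1.20 ± 0.24, adjusted p = 0.0154) and Klf10 (0.68 ± 0.16, adjusted p = 0.0378) were called at 8 weeks, both higher (0.851% of all genes), with a list median of 0.16 beside -0.01. At 3 weeks 5 were higher (14.3%) and 2 lower (12.1%), with Plk2, Errfi1 and Btg1 higher and Jund and Csrnp1 lower. With the Y-linked covariate Cebpb alone was called at 8 weeks (1.32 ± 0.26, adjusted p = 0.0153) and no gene of the list at 3 weeks. From 3 to 8 weeks 12 of 39 rose (7.89%) and 1 fell (9.58%) in MuRF1 +/+, where 9 rose (13.5%) and 6 fell (18%) in MuRF1 -/-. Cebpb, Cebpd and Csrnp1 passed in both, at 2.26, 2.28 and 0.82 in MuRF1 +/+ and 1.57, 1.47 and 0.80 in MuRF1 -/-. All 13 calls of the first comparison were also made with the Y-linked covariate, and 6 of the 15 in the second, Cebpb, Cebpd and Csrnp1 in both. In the first the covariate could change little, since mean Ddx3y in MuRF1 +/+ was -0.70 at 3 and -0.60 at 8 weeks. Mean Xist, which the covariate does not cover, was -0.29 and -1.88 in these groups. No gene of the list passed the test of the difference between the genotypes' 8-week responses.

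**Figure D4:**
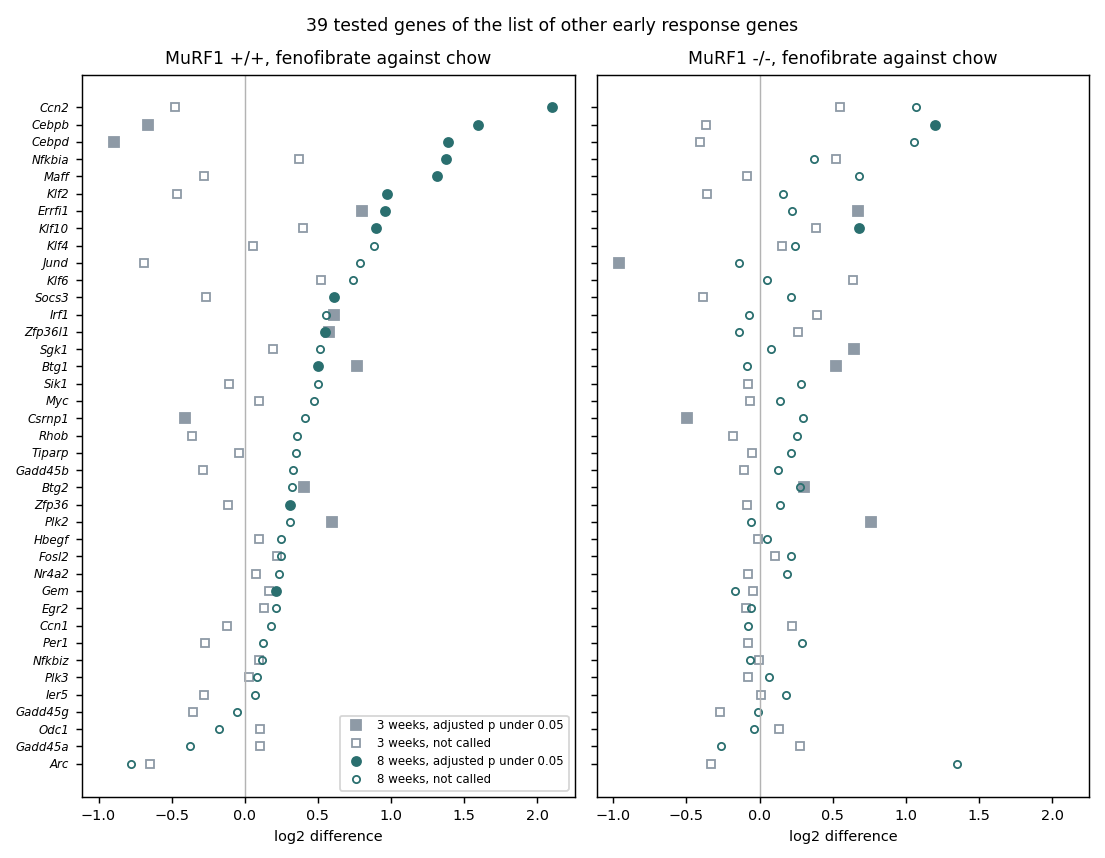
Log2 difference of fenofibrate against chow (horizontal axis) for the 39 tested genes of the list of other early response genes (rows, ordered by the 8-week MuRF1 +/+ value); squares are 3 weeks, circles 8 weeks, and filled symbols have an adjusted p under 0.05. In MuRF1 +/+ all 13 filled circles lie to the right of 0, and in MuRF1 -/- there are 2, Cebpb and Klf10.

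Genes that act before and after the members in the same pathway were counted too. Of 27 tested kinases and factors that act on immediate early promoters, 0 were higher (5.26% of all tested genes) and 3 lower (8.74%) at 8 weeks in MuRF1 +/+, with a median of 0.04, and 0 (0.851%) and 1 (0.982%) in MuRF1 -/-. At 3 weeks 2 were higher (12%) and 4 lower (12.3%) in MuRF1 +/+, and 3 (14.3%) and 5 (12.1%) in MuRF1 -/-. From 3 to 8 weeks 2 rose (7.89%) and 2 fell (9.58%) in MuRF1 +/+, where 3 rose (13.5%) and 7 fell (18%) in MuRF1 -/-. Mapk8, which encodes the Jun kinase JNK1, was higher at 3 weeks than on chow by 1.24 ± 0.16 in MuRF1 +/+ (adjusted p = 3.77e-05) and 1.22 ± 0.16 in MuRF1 -/- (adjusted p = 2.72e-05), and fell from 3 to 8 weeks by 0.88 and 1.26 on the log2 scale. All 4 of these Mapk8 calls were also made with the Y-linked covariate, which could change little in the fall from 3 to 8 weeks in MuRF1 +/+. Srf, the serum response factor itself, was lower than on chow in all 4 comparisons, with and without that covariate. At 3 weeks the Srf difference was -0.67 ± 0.12 in MuRF1 +/+ (adjusted p = 0.000606) and -0.51 ± 0.12 in MuRF1 -/- (adjusted p = 0.00423). At 8 weeks it was -0.68 ± 0.13 in MuRF1 +/+ (adjusted p = 0.00244) and -0.50 ± 0.13 in MuRF1 -/- (adjusted p = 0.0498). The lower genes at 8 weeks in MuRF1 +/+ also included the kinase Map2k4 (-0.39 ± 0.11, adjusted p = 0.0275). Among the 27 kinases and factors, with the Y-linked covariate, 1 was higher (1.54%) and 1 lower (0.81%) at 3 weeks in MuRF1 +/+. In MuRF1 -/- it was 1 (1.96%) and 1 (0.995%). At 8 weeks it left Srf alone in each genotype (0.309% and 0.529% lower), and Map2k4 was not called. From 3 to 8 weeks 2 rose (7.47%) and 2 fell (9.12%) in MuRF1 +/+, and 1 (5.62%) and 1 (7.8%) in MuRF1 -/-. Of 9 tested MAP kinase phosphatases other than Dusp1, Dusp4 was higher (0.75 ± 0.19, adjusted p = 0.0142) and Dusp10 lower (-0.45 ± 0.12, adjusted p = 0.0202) at 8 weeks in MuRF1 +/+, 1 of 9 in each direction beside the 5.26% and 8.74% of all genes, and none was called in MuRF1 -/-. Dusp6, the ERK phosphatase, was higher at 3 weeks in both genotypes, by 0.64 ± 0.16 in MuRF1 +/+ (adjusted p = 0.00673) and 0.65 ± 0.16 in MuRF1 -/- (adjusted p = 0.00564). Of 20 tested AP-1 and bZIP partners, which share Cebpb, Cebpd, Maff, Jund and Fosl2 with the list above, 3 were higher (Cebpb, Cebpd and Maff) and 1 lower (Ddit3, -0.38 ± 0.12, adjusted p = 0.0386) at 8 weeks in MuRF1 +/+. Among 7 tested heat shock genes 2 were higher there, Hspb1 (0.74 ± 0.18, adjusted p = 0.0114) and Hspa8 (0.59 ± 0.15, adjusted p = 0.0177), and 0 lower. The same shares of all genes, 5.26% higher and 8.74% lower, stand beside these bZIP and heat shock counts. With the Y-linked covariate, none of these calls of phosphatases, bZIP partners and heat shock genes against chow was made other than Cebpb.

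Markers of other cell types moved in the same comparisons. At 8 weeks in MuRF1 +/+, the 2 tested neutrophil markers of 4 listed, S100a8 and S100a9, were both higher than on chow (5.26% of all tested genes), their mean running from -3.27 to -1.56 against -3.83 to -3.77, while Csf3r was above background on no array. The -1.56 was replicate 2, an array that stands apart, and replicates 1 and 3 were -3.27 and -3.08. The 8-week range in MuRF1 -/- was -3.39 to -3.13 against -3.74 to -3.48 on chow, and 0 of 2 were called. Of 8 endothelial markers 3 were higher and 0 lower at 3 weeks in MuRF1 +/+ (12% and 12.3% of all genes), at 3 weeks in MuRF1 -/- (14.3% and 12.1%) and at 8 weeks in MuRF1 +/+ (5.26% and 8.74%). Their mean in MuRF1 +/+ was 0.19 to 0.21 in chow hearts, 0.55 to 0.83 after 3 weeks and 0.34 to 1.36 after 8. The 1.36 was again replicate 2, and replicates 1 and 3 were 0.34 and 0.44. The MuRF1 -/- ranges for the same diets were 0.08 to 0.33, 0.47 to 0.89 and -0.02 to 0.15. Of 7 fibroblast markers 4 were higher at 3 weeks and 2 at 8 weeks in MuRF1 +/+, and 2 at 3 weeks in MuRF1 -/-, beside the same shares. Of 5 tested macrophage and leukocyte markers of 7 listed, none was higher than on chow in any of the 4 comparisons, and 1 was lower at 3 weeks (12.1%) and 1 at 8 weeks (0.982%) in MuRF1 -/-. From 3 to 8 weeks in MuRF1 -/-, the comparison with 3 called members, 5 of 8 endothelial, 3 of 7 fibroblast and 3 of 5 macrophage and leukocyte markers were lower (18% of all genes) and none was higher (13.5%). With the Y-linked covariate none of these neutrophil, endothelial and fibroblast calls against chow was made. Of all genes 1.54% (3 weeks) and 0.192% (8 weeks) were then higher in MuRF1 +/+, and 1.96% at 3 weeks in MuRF1 -/-. The macrophage and leukocyte call at 8 weeks remained (0.529% of all genes lower), and that at 3 weeks did not. From 3 to 8 weeks in MuRF1 -/- it left 2 endothelial, 2 fibroblast and 0 macrophage and leukocyte markers lower (7.8%). The mean of the fibroblast markers there went from -2.44 to -1.87 at 3 weeks to -3.28 to -2.94 at 8 weeks, and that of the macrophage and leukocyte markers from -0.20 to -0.06 to -0.52 to -0.35, so that neither pair of ranges overlapped. The mean of the 4 tested atrial markers at 3 weeks was -1.15 to -0.96 in MuRF1 +/+ (chow -1.91 to -1.65). In MuRF1 -/- it was -1.68 to -0.16 (chow -1.86 to -1.60). That of the cardiomyocyte markers at 8 weeks was 2.97 to 3.06 in MuRF1 +/+ (chow 3.24 to 3.50) and 2.84 to 3.19 in MuRF1 -/- (chow 3.26 to 3.60). The part of these cells in the members' levels was not tested, and in whole hearts more cells of a type and more RNA per cell cannot be told apart.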

How the data were processed

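The members, the gene lists and the tests were chosen with earlier results of these data known. Spot intensity (mean signal and median local background of both channels) and flags of 0 or 1 were deposited without normalization, from Agilent Feature Extraction 9.5.3.1 per the file headers. Agilent's log10 ratios (Cy5 over Cy3) were deposited after background subtraction and dye normalization per the file headers, and the series matrix was deposited as log2 values of the authors, made by steps not given in the sources used here. On bright probes, regressed on Agilent's ratio, that matrix had slopes of 0.93 to 0.98 and column medians of -0.0060 to 0.0091, so its scale and direction were settled. The channel labels name Cy5 for heart RNA and the labelling text Cy3, and the channel labels were followed. No dye swap is labelled.

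Spot intensities were corrected with normexp (offset 50, which shrinks differences of dim probes), leaving out 6 spots whose background exceeded their signal by over 50, all on MuRF1 -/- chow replicate 2, and normalized within arrays by loess in limma 3.58.1 (R 4.3.3). Outlier spots were treated as missing, and 43379 spots were averaged to 41174 probes. Names came from RefSeq accessions or, where none matched, from a current symbol, a synonym or, last, the gene name on the array. The probe with the brightest heart signal stood for each gene, which was tested if that probe was above background there (Agilent's flag) on 3 or more of the 20 arrays. A model of 6 group means with trended eBayes was fitted to 14567 genes, and p-values were adjusted by Benjamini-Hochberg over all of them in each of 12 comparisons. Values are log2 differences ± SE with moderated 95% intervals. Slides (5 of 4 arrays) were told apart by scan, since 4 arrays of 1 scan repeat the slide barcode and positions of those of another in the file headers, and within-slide values rest on that choice. Hearts are biological replicates per the labels, and their number limits the precision. The rule for named genes took all members, at most 5 called genes of a list by smallest p, and the 8 genes most like the members. The fit was tested on simulated data, and the alternatives are given in the closing section. The Y-linked covariate was added for the gene lists, and the other Junb probe for the members, after seeing the data.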

Additional observations from a re-analysis of the deposited data

How the results depend on the processing

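No value of a called member changed sign in any of the 21 or 22 alternatives run. The count of called members moved by more than 1.5 times as follows, with the share of all tested genes called in the same setting in parentheses. At 3 weeks in MuRF1 +/+ (2 called) it was 1 with all spots in the background fit (18.8%), 1 in the series matrix (17%) and 0 with the Y-linked covariate (2.35%). At 3 weeks in MuRF1 -/- (1 called) it was 0 with all spots (16%), 0 in the series matrix (15.1%), 0 with the Y-linked covariate (2.96%), and 2 with array weights (39.5%) or without the 2 arrays that stand apart (36.3%). There Fos was added at -0.30 and -0.32, although it was above background on 0 of the 7 arrays of these groups, so that this call compares values at the floor of the signal. At 8 weeks in MuRF1 +/+ (2 called) it was 4 with a filter of 10 arrays, which adds Junb and Atf3 (17.4%), 0 with only the groups compared (0.371%) and 1 with the Y-linked covariate (0.501%). At 8 weeks in MuRF1 -/- (0 called) it was 1 with array weights, Egr1 (9.97%), and 1 with the Y-linked covariate, Atf3 (1.08%). From 3 to 8 weeks in MuRF1 +/+ (0 called) it was 1 with Agilent's log ratio (26.5%), 1 with the heart channel alone (22.2%), 1 with only the groups compared (7.05%), 4 with array weights (32.6%) and 2 without the arrays that stand apart (23.9%). From 3 to 8 weeks in MuRF1 -/- (3 called) it was 6 with array weights (48.2%), 5 without the arrays that stand apart (41.1%) and 1 with the Y-linked covariate (13.4%). Array weights also gave 1 call between genotypes at 8 weeks, Ier3 (16.9%), and 2 for the difference of the 8-week responses, Egr1 and Ier3 (13%), each from 0. The cause of these moves was not tested.

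Leaving out 1 heart at a time, the counts ran from 1 to 2 at 3 weeks in MuRF1 +/+ and from 0 to 5 from 3 to 8 weeks in MuRF1 -/-, with 0 without 8-week replicate 3 (22.2%) and 5 without 3-week replicate 4 (33%). The ranges at 8 weeks against chow were 1 to 3 in MuRF1 +/+ and 0 to 1 in MuRF1 -/-, and 0 to 1 from 3 to 8 weeks in MuRF1 +/+. Replicate numbers did not pair the hearts: deviations of same-numbered hearts correlated at -0.58 to 0.45 (median -0.04), those of other numbers at a median of 0.01. With a replicate block the count was 3 at 8 weeks in MuRF1 +/+, adding Junb (adjusted p = 0.0342), and 3 from 3 to 8 weeks in MuRF1 -/-, where Dusp1 was called (adjusted p = 0.0444) and Ier3 was not (adjusted p = 0.0875). Fos and Fosb were limited by signal, being above background on 4 and 2 arrays. Of 24 groups of 4 hearts examined per gene, none held a heart past Dixon's 95% critical value.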
